A study of Homo sapiens with 4 samples.

Results

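The genes of the proteasome, including the 3 catalytic subunits of the immunoproteasome, were followed in A549 cells with and without knockdown of RBM10. Members were the protein-coding genes whose symbol is PSMA, PSMB, PSMC, PSMD, PSME, PSMF or PSMG followed by digits alone. GENCODE v29 names 48 such genes, and 46 of them were among the 17041 genes of the expression table. PSMA8 and PSMB11, subunits known from testis and from thymus, were not in it. The splicing table held 1 event of a member, in PSMA2, among 3768 events. PSMC3IP and PSME3IP1 begin with the same letters but encode no proteasome subunit, and were left out.

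A549 is a human lung adenocarcinoma line. In 2 knockdown libraries a lentivirus had delivered an shRNA to lower RBM10, whose protein binds RNA and steers exon choice, and the cells had then been kept in puromycin at 1 µg per mL for 10 to 14 days. The 2 wild-type libraries came from A549 cells with wild-type RBM10. The labels do not say whether these cells received a control virus or puromycin, so knockdown and transduction with selection cannot be told apart. All 4 libraries came from polyadenylated RNA of 1 batch. The labels do not say that replicates came from separate cultures, so p-values here speak only of differences among these 4 libraries and their possibly technical scatter.

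The proteasome degrades proteins tagged with ubiquitin. Its core particle, 20S, is a barrel of stacked rings of alpha subunits (PSMA), which gate the entry, and beta subunits (PSMB), of which PSMB5, PSMB6 and PSMB7 carry the proteolytic sites. Its regulatory particle, 19S, binds and unfolds substrates with a ring of ATPases (PSMC) and a set of further subunits (PSMD). After interferon gamma, and at rest in many immune cells, PSMB8, PSMB9 and PSMB10 take the places of PSMB5, PSMB6 and PSMB7, and this immunoproteasome yields many of the peptides shown on MHC class I.

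Levels are taken as RPKM, reads scaled by gene length and by library depth, a unit inferred from the values. They can be compared between genes except where genes may share reads, as with PSMA2 below. Depth relative to the deepest library was 84.5% and 95.6% in knockdown replicates 1 and 2, and 99.0% and 100% in wild-type replicates 1 and 2. RBM10 itself was at 11.6 and 10.9 RPKM in knockdown and at 35.5 and 40.8 RPKM in wild type, which left 29.5% of the wild-type mean (log2 change -1.67, SE 0.11; limma, adjusted p = 1.01e-05). Of 11 epithelial and A549 markers, 7 were at 1 RPKM or more in every library, of which KRT8, KRT18, KRT19 and EPCAM rose and AKR1B10 fell, while the surfactant genes SFTPB and SFTPC and the lung factor NKX2-1 were not in the table. KRT8 was at 689 and 666 RPKM in knockdown and 325 and 370.5 RPKM in wild type, and AKR1B10 at 1309 and 1442 RPKM in knockdown and 2769.8 and 2687 RPKM in wild type, so genes of the epithelial list moved with the groups in both directions, and their part in the results below was not tested. Of 9 leukocyte markers, 5 were listed, with a summed level of 4.01 and 4.05 RPKM in knockdown and 1.91 and 2.25 RPKM in wild type. CD68 alone among these reached 1 RPKM, and the defining leukocyte marker PTPRC was not in the table. CD68 made up most of each sum, at 3.49 and 3.57 RPKM in knockdown and 1.56 and 1.72 RPKM in wild type. It rose (log2 change 0.78, limma adjusted p = 0.00101). The other 4 listed were below 1 RPKM in every library and were not tested. Of these, CD14, LCP1 and CD74 had a higher mean in knockdown and ITGAM a lower one. PSMB9 is expressed in leukocytes, and the part of these markers in the results was not tested. Of 8 fibroblast and endothelial markers, 5 were listed, with sums of 2.13 and 2.02 RPKM in knockdown and 0.566 and 0.845 RPKM in wild type. THY1 made up most of each sum, at 1.91 and 1.74 RPKM in knockdown and 0.535 and 0.786 RPKM in wild type. It rose (log2 change 0.77; limma, adjusted p = 0.00163).

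PSMB9 was much less abundant in knockdown cells, 11 further proteasome mRNAs fell by smaller amounts, and most members did not pass the test. In bulk RNA, fewer cells that express a gene and less of its RNA per cell cannot be told apart. Of the 46 listed members, 45 passed the filter of a mean of 1 RPKM in at least 1 group, and PSMA2 did not. In limma, with Benjamini-Hochberg adjustment over all 10182 tested genes, 12 members fell and 0 rose, and 33 did not pass. Over all tested genes 7.03% fell and 15.3% rose. The log2 change was below 0 in 41 of 45 members, and its median was -0.23, against 0.02 over all tested genes, where 4770 were below 0 and 5412 above. PSMB9 was at 28.5% of its wild-type mean, and the other 11 genes that fell were at 73.4% to 80.6% of theirs. Both knockdown libraries lay below both wild-type libraries in 32 of 45 members, against 27.3% of all tested genes, and above them in 1 member, PSMB8, against 34.3%.

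**Figure D1:**
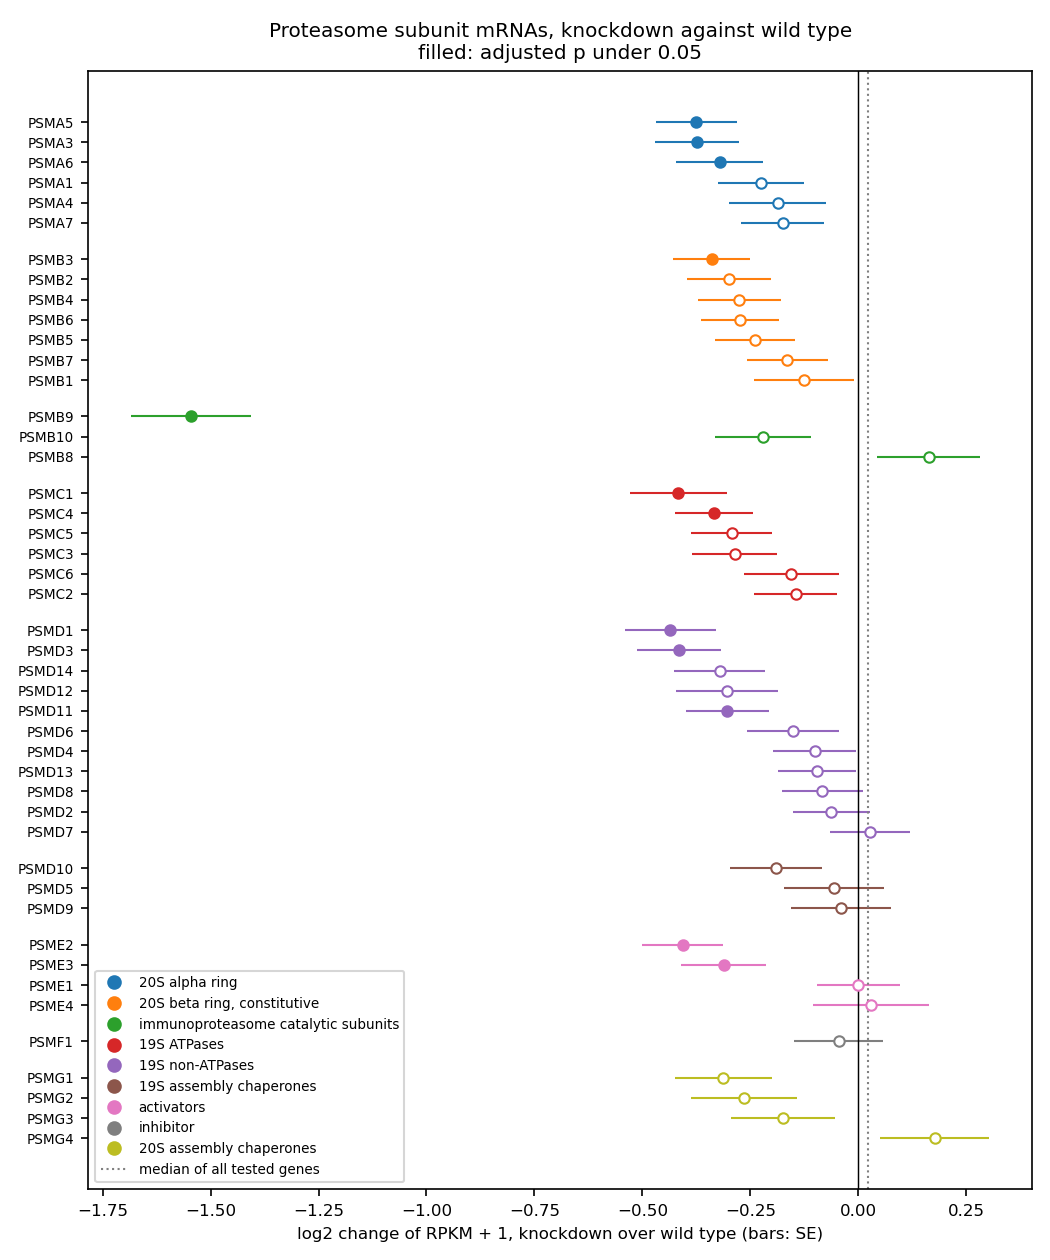
Log2 change of RPKM + 1 (knockdown over wild type; bars are SE) for the 45 tested members, grouped by role, with filled points for an adjusted p under 0.05. PSMB9 lies at -1.55, away from all others, which lie between -0.44 and 0.18; the dotted line marks the median of all tested genes.

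How many members fell depended on the libraries and on the scaling. Without knockdown replicate 1, 2 members fell, PSMB9 and PSMD3, or 4.44% of members against 4.03% of all genes tested. Without knockdown replicate 2, 4 fell, PSMB9, PSMC1, PSMD1 and PSME2, or 8.89% against 4.31% of all genes. Without wild-type replicate 1, 8 fell, or 17.8% against 6.13%, and without wild-type replicate 2, 13 fell, or 28.9% against 6.42%. The share of members that fell was thus near that of all genes without knockdown replicate 1 and above it when any of the other 3 libraries was left out. With cyclic loess normalization 5 members fell, or 11.1% against 8.59% of all genes, and with quantile normalization 8, or 17.8% against 10.1%. With scaling factors from a trimmed mean 15 fell, or 33.3% against 8.03%. With the replicate number as a block 5 fell, or 11.1% against 4.30%. With no filter on low values 4 fell, or 8.70% against 1.89%, and with a filter of 5 RPKM 14 fell, or 31.8% against 11.0%. Among all tested genes 1555 rose and 716 fell on the deposited scale, and 1140 rose and 1031 fell after quantile normalization. PSMB9 passed in all 11 alternative settings, PSMD3 and PSME2 passed in 10, PSMD1 in 8, and PSMA5 and PSMC1 in 7. PSMA3, PSMB3 and PSMC4 passed in 5 of them, and PSMA6, PSMD11 and PSME3 in 4, so these 6 calls were lost in most settings. The median over the tested members stayed between -0.26 and -0.16 in all 11.

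Most members are abundant transcripts. At a mean of 20 RPKM or more, a level chosen after the values were seen, the median log2 change of the 2155 tested genes was -0.08, and 12.7% of them fell and 9.84% rose. Of the 32 members at that level, 11 fell, with a median of -0.27. Both knockdown libraries lay below both wild-type libraries in 26 of these 32 members and in 41.1% of all genes at that level. PSMB9, at a lower level, is the fallen member outside this range.

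**Figure D2:**
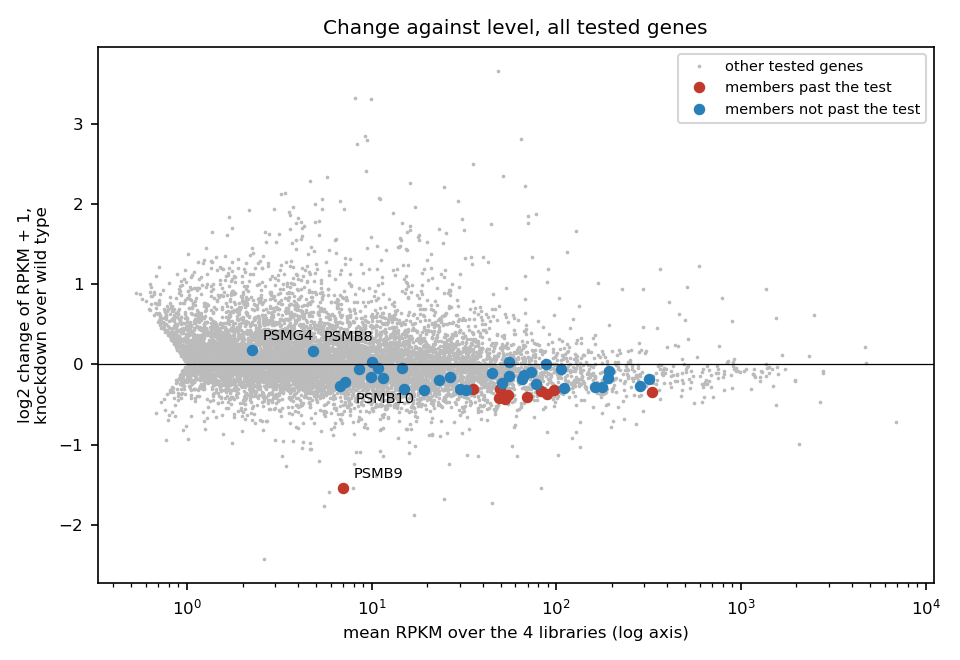
Log2 change (knockdown over wild type) against mean RPKM over the 4 libraries, on a log axis, for all 10182 tested genes in grey and the 45 tested members in colour. Members above 20 RPKM form a band just below 0, where the median of the 32 is -0.27, and PSMB9 stands apart at -1.55.

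PSMB9 encodes beta-1i, the immunoproteasome subunit that replaces PSMB6. It was at 2.59 and 3.597 RPKM in knockdown libraries and at 10.3 and 11.4 RPKM in wild-type libraries. The groups were far apart, with means of 3.09 ± 0.715 RPKM in knockdown and 10.9 ± 0.772 RPKM in wild type (SD, n = 2 each). Its log2 change was -1.55 (SE 0.14; limma, adjusted p = 6.46e-05), and over the 11 alternative settings it lay between -1.80 and -1.37, with adjusted p from 8.01e-18 to 0.0127. The 2 other immunoproteasome subunits did not pass. PSMB8, or beta-5i, was at 5.50 and 4.79 RPKM in knockdown and at 4.21 and 4.76 RPKM in wild type, a log2 change of 0.16 (SE 0.12; adjusted p = 0.364). Its knockdown libraries lay just above those of wild type, with a gap smaller than the spread within either group. PSMB10, or beta-2i, was at 6.66 and 6.48 RPKM in knockdown and at 7.35 and 8.32 RPKM in wild type, a log2 change of -0.22 (SE 0.11; adjusted p = 0.19). All 3 subunits were at low levels, and whether the change of PSMB9 differs from that of PSMB8 or PSMB10 was not tested.

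The constitutive counterparts were at much higher levels and none of them passed. PSMB6 was at 261 and 256 RPKM in knockdown and at 299.5 and 327 RPKM in wild type (log2 change -0.27, SE 0.09; limma, adjusted p = 0.0562). PSMB5 was at 73.2 and 69.2 RPKM in knockdown and at 82.6 and 85.9 RPKM in wild type (log2 change -0.24, SE 0.09; adjusted p = 0.0943). PSMB7 was at 189 and 171 RPKM in knockdown and at 198 and 205 RPKM in wild type (log2 change -0.16, SE 0.09; adjusted p = 0.239). In all 3 the knockdown libraries lay below the wild-type libraries, as in 41.1% of tested genes at a mean of 20 RPKM or more. As a share of its counterpart in the same library, PSMB9 was at 0.991% and 1.41% of PSMB6 in knockdown and at 3.44% and 3.49% in wild type. PSMB8 was at 7.52% and 6.92% of PSMB5 in knockdown and at 5.10% and 5.54% in wild type. PSMB10 was at 3.53% and 3.78% of PSMB7 in knockdown and at 3.70% and 4.06% in wild type. The mean share of PSMB9 was thus 0.345 times that of wild type, that of PSMB8 1.36 times and that of PSMB10 0.941 times. The groups did not overlap for PSMB9 and PSMB8 and overlapped for PSMB10 (exact permutation tests over the 4 libraries, two-sided, p = 0.333, 0.333 and 0.667, where 0.333 is the smallest p that 2 against 2 libraries allow). Summed over the 3 subunits the immunoproteasome share was 2.82% and 2.996% in knockdown and 3.77% and 3.97% in wild type.

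**Figure D3:**
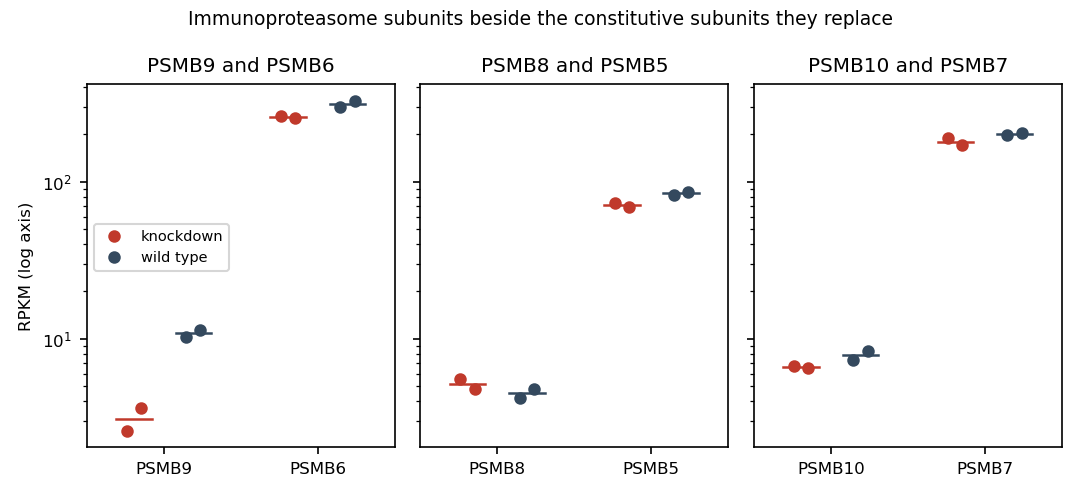
RPKM on a log axis of each immunoproteasome subunit and the constitutive subunit it replaces, with points for the 2 knockdown and 2 wild-type libraries and a line at each mean. PSMB9 is the pair member that separates the groups widely, at a mean of 3.09 RPKM in knockdown and 10.9 RPKM in wild type, beside PSMB6 at 258 RPKM in knockdown and 313 RPKM in wild type.

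PSMB9 and PSMB8 lie side by side on chromosome 6, from 32844136 to 32859585 on the plus strand and from 32840717 to 32844703 on the minus strand (hg38, GENCODE v29). The gene for TAP1, the peptide transporter subunit that carries proteasome products into the endoplasmic reticulum, faces PSMB9 on the opposite strand, and in RefSeq the 2 starts are 488 bases apart. The RefSeq start of PSMB9, used for the distance and for the promoter window below, is at 32854192. It lies inside the GENCODE span and not at the start of that span. In GENCODE v29 PSMB9 overlaps PSMB8 and TAP1 on the opposite strand and PSMB8-AS1 on its own strand. The use of strand in counting is not stated, so the PSMB9 value could hold reads of any of them. TAP1 was at 7.71 and 6.44 RPKM in knockdown and at 7.85 and 7.81 RPKM in wild type, and did not pass (log2 change -0.13, SE 0.12; limma, adjusted p = 0.454). PSMB9 passed and its neighbours PSMB8 and TAP1 did not, and the differences between their changes were not tested.

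The promoters of the 3 immunoproteasome genes and of TAP1 are shown because these genes are known as targets of interferon and NF-kB. Each window runs from 250 bases before the RefSeq start to 50 bases after it, from RefSeq on GRCh38.p14, the assembly called hg38, and reads 5′ to 3′ on the strand of its gene. Capitals mark matches on either strand to the interferon response core GAAANNGAA, to the antioxidant response core TGACNNNGC, which the proteasome gene activator NFE2L1 can bind, or to the NF-kB site.
PSMB9, chr6:32853942-32854241, plus strand: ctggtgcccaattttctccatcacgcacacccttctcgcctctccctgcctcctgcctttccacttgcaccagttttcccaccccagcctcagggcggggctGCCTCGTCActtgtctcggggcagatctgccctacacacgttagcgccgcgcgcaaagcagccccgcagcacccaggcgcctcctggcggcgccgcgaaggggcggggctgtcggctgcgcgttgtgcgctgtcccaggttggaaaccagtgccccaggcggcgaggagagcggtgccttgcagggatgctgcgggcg
TAP1, chr6:32853655-32853954, minus strand: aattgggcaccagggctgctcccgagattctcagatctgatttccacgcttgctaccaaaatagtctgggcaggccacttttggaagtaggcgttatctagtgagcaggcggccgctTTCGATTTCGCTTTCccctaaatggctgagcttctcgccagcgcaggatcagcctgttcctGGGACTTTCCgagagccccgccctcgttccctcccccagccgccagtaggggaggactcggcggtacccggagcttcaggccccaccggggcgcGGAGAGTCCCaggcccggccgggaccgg
PSMB8, chr6:32844630-32844929, minus strand: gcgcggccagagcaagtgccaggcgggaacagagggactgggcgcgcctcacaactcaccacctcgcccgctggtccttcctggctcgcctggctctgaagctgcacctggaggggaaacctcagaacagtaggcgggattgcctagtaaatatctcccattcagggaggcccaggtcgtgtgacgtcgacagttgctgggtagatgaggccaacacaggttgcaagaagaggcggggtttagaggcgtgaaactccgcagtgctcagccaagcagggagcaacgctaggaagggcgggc
PSMB10, chr16:67936801-67937100, minus strand: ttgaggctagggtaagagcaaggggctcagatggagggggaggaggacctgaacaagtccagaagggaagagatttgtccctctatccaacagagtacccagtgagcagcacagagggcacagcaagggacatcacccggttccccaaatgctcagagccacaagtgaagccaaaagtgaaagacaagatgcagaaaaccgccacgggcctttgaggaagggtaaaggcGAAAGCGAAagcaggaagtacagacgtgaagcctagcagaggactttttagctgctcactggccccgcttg

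The PSMB9 window held 1 antioxidant core, 148 bases before the start, and neither an interferon core nor an NF-kB site. The TAP1 window, which shares 13 bases with it, held 2 overlapping interferon cores, at 133 and 127 bases before the TAP1 start. It also held 2 NF-kB sites, at 72 bases before and 23 bases into the gene. The sites before the TAP1 start lie between the 2 starts, 488 bases apart. They are thus also before the PSMB9 start, beyond the end of the PSMB9 window. PSMB10 held 1 interferon core, 21 bases before its start, and PSMB8 held none of the 3. Over the 35116 windows of this length, 8.11% held the interferon core, 13.3% the antioxidant core and 11.3% the NF-kB site. Of the 42 members with a window, 7, 13 and 1 held them, the 1 with an NF-kB site being PSMA8. Among the 12 members that fell, 1, 6 and 0 held them. The 6 with an antioxidant core were PSMB3, PSMB9, PSMC4, PSMD1, PSMD3 and PSME2. A match describes letters in the window and no binding was measured.

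In the alpha ring, 3 of 6 tested genes fell and 0 rose, with a median log2 change of -0.27. All 6 were at a mean of 20 RPKM or more, where 12.7% of tested genes fell, 9.84% rose and the median was -0.08. PSMA5 was at 47.5 and 47.1 RPKM in knockdown and at 63.9 and 59.5 RPKM in wild type (log2 change -0.38, SE 0.09; limma, adjusted p = 0.0193). PSMA3 was at 77.7 and 77.0 RPKM in knockdown and at 107 and 94.5 RPKM in wild type (log2 change -0.37, SE 0.10; adjusted p = 0.0229). PSMA6 was at 90.6 and 81.2 RPKM in knockdown and at 112 and 103 RPKM in wild type (log2 change -0.32, SE 0.10; adjusted p = 0.0461). In these 3 genes no knockdown library reached the level of a wild-type library, which their choice by the test on the same libraries favours. Such separation was seen in 5 of the 6 tested genes, against 41.1% of all tested genes at a mean of 20 RPKM or more. PSMA1, PSMA4 and PSMA7 were at 85.1%, 87.5% and 88.5% of their wild-type means and did not pass. PSMA7 was the most abundant of the ring at 312 and 287 RPKM in knockdown and 319.9 and 358 RPKM in wild type, and PSMA4 was the tested gene whose groups overlapped.

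Of all tested genes at a mean of 20 RPKM or more, 12.7% fell and 9.84% rose. In the constitutive beta ring 1 of 7 genes fell, near that share, and 0 rose, with a median log2 change of -0.27. It was PSMB3, a subunit without a proteolytic site, at 300.3 and 284 RPKM in knockdown and 359 and 381 RPKM in wild type (log2 change -0.34, SE 0.09; limma, adjusted p = 0.0233). PSMB3 was also the most abundant member in wild type, with a mean of 370.0 RPKM. PSMB1, PSMB2 and PSMB4, the other subunits without catalytic sites, were at 91.8%, 80.7% and 82.6% of their wild-type means and did not pass. In 6 of the 7 genes both knockdown libraries lay below both wild-type libraries, and PSMB1 overlapped. Such separation was seen in 41.1% of all tested genes at a mean of 20 RPKM or more, the level of all 7.

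Of the 6 ATPases of the regulatory particle, 2 fell and 0 rose, with a median of -0.29. All 6 were at a mean of 20 RPKM or more, where 12.7% of tested genes fell and 9.84% rose. PSMC1 was at 38.0 and 46.1 RPKM in knockdown and at 57.1 and 55.4 RPKM in wild type (log2 change -0.42, SE 0.11; limma, adjusted p = 0.0247). PSMC4 was at 73.7 and 72.8 RPKM in knockdown and at 90.4 and 94.9 RPKM in wild type (log2 change -0.33, SE 0.09; adjusted p = 0.0269). The decrease of PSMC1 was larger in knockdown replicate 1, without which its log2 change was -0.28 and did not pass. PSMC3 and PSMC5 were at 81.7% and 81.4% of their wild-type means and PSMC2 and PSMC6 at 90.2% and 89.2%, and none of these 4 passed.

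Of the 11 other structural subunits of the regulatory particle, 3 fell and 0 rose, with a median of -0.15. Over all tested genes 7.03% fell and 15.3% rose, and at a mean of 20 RPKM or more 12.7% fell and 9.84% rose. PSMD1, a large scaffold subunit that also docks ubiquitin receptors, was at 43.0 and 46.4 RPKM in knockdown and at 65.1 and 56.6 RPKM in wild type (log2 change -0.44, SE 0.11; limma, adjusted p = 0.0161). PSMD3, of the lid, was at 46.2 and 44.0 RPKM in knockdown and at 58.0 and 63.0 RPKM in wild type (log2 change -0.42, SE 0.10; adjusted p = 0.0134). PSMD11, also of the lid, was at 44.4 and 43.9 RPKM in knockdown and at 57.0 and 52.6 RPKM in wild type (log2 change -0.30, SE 0.10; adjusted p = 0.0477). The 3 genes that fell had no overlap between groups, which their choice by the test on the same libraries favours. Both knockdown libraries lay below both wild-type libraries in 9 of the 11. Such separation was seen in 27.3% of all tested genes and in 41.1% of those at a mean of 20 RPKM or more. PSMD1 was at the lowest share of its wild-type mean among members other than PSMB9, 73.4%. PSMD14, the deubiquitinase of the lid, was at 28.0 and 29.4 RPKM in knockdown and 38.7 and 33.6 RPKM in wild type and did not pass (adjusted p = 0.0559). PSMD12, also of the lid, was at 79.4% of its wild-type mean and did not pass. PSMD2, the other large scaffold subunit, was at 103.7 and 103.9 RPKM in knockdown and 110.2 and 107 RPKM in wild type (adjusted p = 0.657). PSMD4, a ubiquitin receptor, and PSMD6, PSMD7, PSMD8 and PSMD13 were at 89.0% to 102% of their wild-type means, and none of them passed. The 19S assembly chaperones PSMD5, PSMD9 and PSMD10 did not pass either, with the largest log2 change in PSMD10, at 20.9 and 21.9 RPKM in knockdown and 26.2 and 23.1 RPKM in wild type (-0.19, SE 0.11; adjusted p = 0.229).

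**Figure D4:**
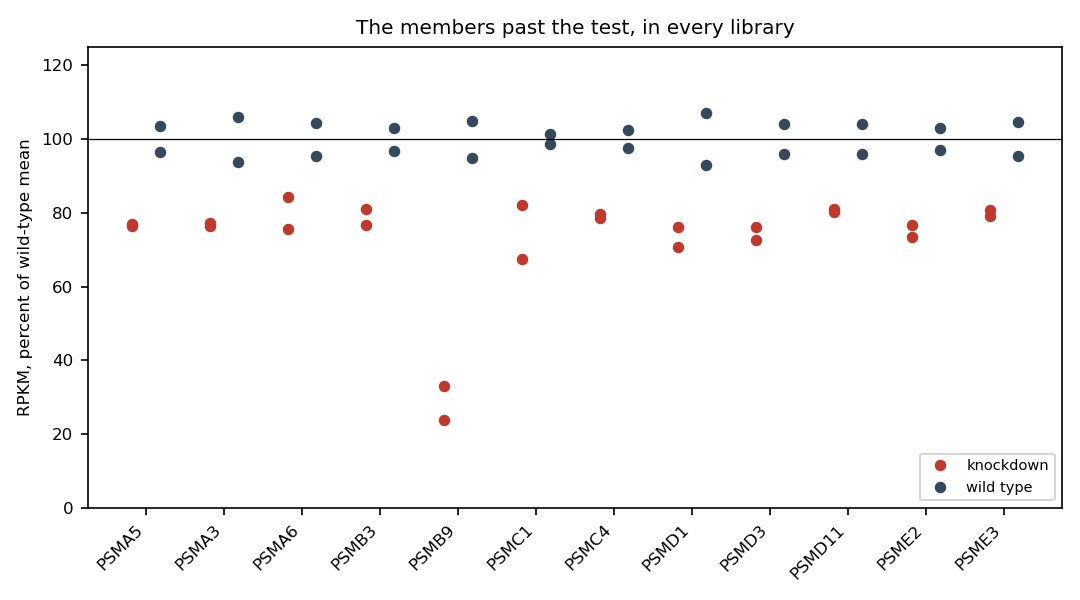
RPKM of the 12 members past the test in every library, as a percent of the wild-type mean of the gene, with 2 knockdown and 2 wild-type points each. In each gene both knockdown points lie below both wild-type points, which the choice of genes by the test on these same libraries favours. PSMB9 lies lowest, at a mean of 28.5%.

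Among the proteasome activators, 2 of 4 fell and 0 rose, against 7.03% and 15.3% of all tested genes. At a mean of 20 RPKM or more these shares were 12.7% and 9.84%. PSME1 and PSME2 encode the alpha and beta chains of PA28, the interferon-inducible activator that opens the core particle without ATP. PSME2 was at 58.6 and 61.2 RPKM in knockdown and at 77.4 and 82.1 RPKM in wild type (log2 change -0.41, SE 0.09; limma, adjusted p = 0.0128). PSME1 was at 88.6 and 87.1 RPKM in knockdown and at 83.5 and 92.4 RPKM in wild type, with a log2 change of -4.33e-05 (SE 0.10; adjusted p = 1). The 2 chains of the same complex were thus measured with separated groups in 1 and overlapping groups in the other, and the difference between their changes was not tested. PSME3, the nuclear activator PA28 gamma, was at 31.2 and 31.8 RPKM in knockdown and at 41.1 and 37.5 RPKM in wild type (log2 change -0.31, SE 0.10; adjusted p = 0.0484). PSME4, or PA200, was at 9.33 and 11.1 RPKM in knockdown and at 11.2 and 8.83 RPKM in wild type (log2 change 0.03, SE 0.13; adjusted p = 0.902).

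The promoters of the PA28 chains are shown because the chains work in 1 complex and lie close together on chromosome 14, with windows, motifs and capitals as above.
PSME1, chr14:24135944-24136243, plus strand: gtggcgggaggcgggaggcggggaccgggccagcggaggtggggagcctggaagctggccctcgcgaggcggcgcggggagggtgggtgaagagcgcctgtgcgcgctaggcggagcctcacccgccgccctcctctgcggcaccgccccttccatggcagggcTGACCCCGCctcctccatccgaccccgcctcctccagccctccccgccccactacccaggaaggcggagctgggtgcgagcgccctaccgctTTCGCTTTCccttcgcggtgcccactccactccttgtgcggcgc
PSME2, chr14:24146561-24146860, minus strand: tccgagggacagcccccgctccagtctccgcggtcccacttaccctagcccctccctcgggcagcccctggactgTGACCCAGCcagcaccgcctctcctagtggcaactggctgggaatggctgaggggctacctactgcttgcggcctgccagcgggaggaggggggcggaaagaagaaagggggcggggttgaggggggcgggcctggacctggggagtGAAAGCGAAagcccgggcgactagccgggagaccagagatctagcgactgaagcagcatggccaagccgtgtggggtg
Both windows held 1 interferon core and 1 antioxidant core. In PSME1 the interferon core began at base 7 of the gene and the antioxidant core 86 bases before the start, and in PSME2 they lay 28 and 175 bases before the start.

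The inhibitor PSMF1, or PI31, was at 14.99 and 13.8 RPKM in knockdown and at 14.6 and 15.1 RPKM in wild type and did not pass (log2 change -0.05, SE 0.10; limma, adjusted p = 0.79), and without knockdown replicate 2 its log2 change was above 0. The 4 chaperones of core particle assembly did not pass. PSMG1, which pairs with PSMG2 to assemble the alpha ring, was at 18.1 and 16.1 RPKM in knockdown and at 23.0 and 20.1 RPKM in wild type (log2 change -0.31, SE 0.11; adjusted p = 0.0753). It passed without wild-type replicate 2, at a log2 change of -0.41. PSMG2 and PSMG3 were at 81.0% and 87.4% of their wild-type means. PSMG4, the partner of PSMG3, was the least abundant tested member, at 2.56 and 2.31 RPKM in knockdown and 1.78 and 2.32 RPKM in wild type, with overlapping groups.

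PSMA2 encodes alpha-2, a subunit of every proteasome, yet it was listed at 0.414 and 0.388 RPKM in knockdown and 0.439 and 0.409 RPKM in wild type, below all other listed members. It was not tested. All 7 introns of its main transcript are in GENCODE v29 also annotated to a longer protein-coding gene on the same strand, ENSG00000256646 (chromosome 7, 42909273 to 42932174). That gene was at 106.4 and 107 RPKM in knockdown and at 130.3 and 118 RPKM in wild type (log2 change -0.21, SE 0.09; limma, adjusted p = 0.139). Reads of PSMA2 and of this gene cannot be told apart at these introns, so neither value is a level of PSMA2 alone. The value of ENSG00000256646 lay within the range of the other alpha ring genes, and its knockdown libraries lay below its wild-type libraries.

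The splicing event lay in PSMA2 (chromosome 7, minus strand, hg38). PSI, percent spliced in, relates reads across an examined junction to those across its competitors. The examined junction joined exon 1 to exon 4 of the main transcript (42932118 to 42924797) and so left out exons 2 and 3, of 77 and 133 bases, together 210 bases or a multiple of 3. GENCODE v29 lists this junction in another protein-coding transcript of PSMA2. The background junction (42931096 to 42927459) joined a 60-base exon inside intron 1, listed in a nonsense-mediated decay transcript, to exon 2. The joined ends of the examined and background junctions are shown because they define what was compared. The exon 1 to exon 2 junction of the main transcript, which the event does not name, is shown beside them. Each has 15 bases of the upstream exon in lower case and 15 of the downstream exon in capitals, from the GENCODE v29 transcripts.
Exon 1 to exon 4, examined: gctgactacattcagAGTGCTTGTGCACAG
Exon 1 to exon 2, main transcript: gctgactacattcagCCCGTCTGGTAAACT
Intron 1 exon to exon 2, background: tgtctaaggtcatcgCCCGTCTGGTAAACT
The 60-base exon inside intron 1 itself reads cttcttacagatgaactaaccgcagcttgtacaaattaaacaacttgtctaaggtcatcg.

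The examined junction had a PSI of 47.7% and 76.8% in knockdown libraries and of 35.8% and 44.7% in wild-type libraries. Both knockdown values were above both wild-type values, with means of 62.3% ± 20.6 in knockdown and 40.3% ± 6.32 in wild type (SD, n = 2 each). The difference of 22.0 percentage points (SE 11.9) did not pass in limma (adjusted p = 0.303 over 3744 events, of which 0.107% passed). Without knockdown replicate 2 the difference was 7.42 points. The table gives no read counts, so the depth behind these shares is unknown.

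Of 20 tested partners of the proteasome outside the naming rule, 4 fell, 0 rose and 16 did not pass. Over all tested genes 7.03% fell and 15.3% rose. The log2 change was below 0 in 15 of the 20 partners, with a median of -0.18. Both knockdown libraries lay below both wild-type libraries in 12 of the partners, against 27.3% of all tested genes. POMP, the chaperone that completes core particle assembly, was at 64.6 and 73.0 RPKM in knockdown and 93.4 and 85.0 RPKM in wild type (log2 change -0.37; limma, adjusted p = 0.0289). ECPAS, which tethers core and regulatory particles, was at 18.5 and 19.6 RPKM in knockdown and 26.5 and 24.2 RPKM in wild type (log2 change -0.39; adjusted p = 0.0225). TXNL1, a thioredoxin-like protein bound to the regulatory particle, was at 3.92 and 3.55 RPKM in knockdown and 5.44 and 5.23 RPKM in wild type (adjusted p = 0.0247), and the shuttle RAD23B at 35.6 and 34.9 RPKM in knockdown and 49.2 and 43.0 RPKM in wild type (adjusted p = 0.0274). These 4 passed in 5 or 6 of the 11 alternative settings each. The ubiquitin receptor ADRM1 of the regulatory particle, at 114 and 95.8 RPKM in knockdown and 117 and 143 RPKM in wild type, did not pass.

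Of 9 tested genes that act in transcription of proteasome genes, 1 rose and 0 fell, against 15.3% and 7.03% of all tested genes. It was MAFK, a small MAF partner of NFE2L1 and NFE2L2, at 20.7 and 20.04 RPKM in knockdown and 12.8 and 13.2 RPKM in wild type (log2 change 0.61; limma, adjusted p = 0.00224). NFE2L1, which restores proteasome gene expression when the proteasome is inhibited, was at 17.8 and 18.999 RPKM in knockdown and 21.7 and 21.6 RPKM in wild type and did not pass (adjusted p = 0.137). NFE2L2 did not pass either, at 6.42 and 6.27 RPKM in knockdown and 8.47 and 6.78 RPKM in wild type.

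Of 13 tested regulators of the immunoproteasome genes, 2 rose and 3 fell, against 15.3% and 7.03% of all tested genes. The share that rose was thus near that of all genes. NFKB2, of the noncanonical NF-kB pathway, was at 15.9 and 14.4 RPKM in knockdown and 35.5 and 39.1 RPKM in wild type (log2 change -1.25; limma, adjusted p = 4.7e-05). RELB, its partner, was at 5.78 and 4.95 RPKM in knockdown and 9.99 and 11.2 RPKM in wild type (log2 change -0.87; adjusted p = 0.000809). The interferon receptor kinase JAK1, which passed in 6 of the 11 alternative settings, was at 32.4 and 39.2 RPKM in knockdown and 52.7 and 44.96 RPKM in wild type (log2 change -0.44; adjusted p = 0.0295). IRF9 and STAT2, which act together in interferon signalling, rose, with IRF9 at 4.71 and 4.74 RPKM in knockdown and 2.58 and 2.70 RPKM in wild type, and STAT2 at 4.34 and 6.06 RPKM in knockdown and 2.93 and 2.45 RPKM in wild type (log2 change 0.65 and 0.74; adjusted p = 0.00266 and 0.0067). IRF1, a direct activator of PSMB9 after interferon gamma, was at 1.83 and 1.98 RPKM in knockdown and 2.19 and 2.20 RPKM in wild type and did not pass (adjusted p = 0.408). The coactivator NLRC5 was below 1 RPKM in all 4 libraries.

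Of 11 tested genes of class I peptide loading, 3 rose and 0 fell, against 15.3% and 7.03% of all tested genes. The median log2 change of the 11 was 0.21, with 7 above 0 and 4 below. Those below 0 were TAP1, ERAP1, CALR and PDIA3, so the list did not move in 1 direction. HLA-B was at 6.81 and 6.10 RPKM in knockdown and 3.74 and 4.34 RPKM in wild type (log2 change 0.57; limma, adjusted p = 0.00843). HLA-E was at 25.9 and 24.6 RPKM in knockdown and 15.9 and 18.9 RPKM in wild type (log2 change 0.51; adjusted p = 0.00989). HLA genes are near-identical in part and polymorphic, so their reads may be shared among them. B2M was at 35.6 and 35.9 RPKM in knockdown and 31.0 and 30.7 RPKM in wild type and did not pass.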

How the data were processed

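RNA of A549 cells was sequenced in 2 knockdown and 2 wild-type libraries, as stranded paired-end reads of polyadenylated RNA per the labels' protocols. The submitters' processing notes name hg38 and STAR 2.6.1. For the counter, its annotation, its use of strand and the splicing caller, nothing is given in the sources used here. Gene values deposited by the authors are RPKM, a unit inferred from the values. Their PSI is a fraction, per the file headers, for events with a deposited spread of at least 0.15, which favours variable events. Reads per gene and junction are unknown, so no counting interval was given.

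RPKM were compared as log2(RPKM + 1), which understates changes of low genes, where either group's mean reached 1 RPKM. All such genes entered 1 limma fit (version 3.58.1, R 4.3.3; two-sided, trended empirical Bayes, no covariate), with Benjamini-Hochberg adjustment and a threshold of 0.05. PSI fractions were fitted likewise without trend in 3744 events, with a minimum difference of 0.1. The tests were run first on simulated data. Relative depth is the commonest ratio between libraries over low genes. Of 17041 gene IDs, 16921 were named from a table of gene IDs, 85 from GENCODE v29, and 35 had no name.

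Among the 46 listed members, 17 have named pseudogenes, of which 2 were listed, at 0.0817 RPKM or less, and 24 overlap a gene on the opposite strand and 13 one on the same strand, so their values may hold shared reads. Named in full were the immunoproteasome subunits and counterparts, members past the test and the largest change of each role, and up to 5 genes past the test of each context list. Members and lists were chosen with earlier results of these data known. The alternatives were other pseudocounts, filters and normalizations, a replicate block and leaving out each library. Promoter windows for 42 of 48 members came from RefSeq. Values of some genes of the context lists, which their counts include, are not reported here.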

Additional observations from a re-analysis of the deposited data

Results flagged for a closer look

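PSMC3IP, a recombination factor whose name begins like that of PSMC3, was outside the member comparisons but had a retained-intron event in the splicing table. Its PSI was 5.95% and 16.2% in knockdown libraries, a mean of 11.1%, and 0% in both wild-type libraries, which drew attention because it was absent from both controls. It is not a proteasome subunit, and the depth behind these shares is unknown. Its event was among the 3744 fitted, and its test result is not reported here. PSMC3IP mRNA was at 15.2 and 17.6 RPKM in knockdown and at 20.03 and 18.2 RPKM in wild type.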

How the results depend on the processing

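Members that fell numbered 12 as reported, 15 with trimmed-mean scaling factors, 14 with a filter of 5 RPKM, 4 with no filter on low values, 8 with quantile normalization, 5 with cyclic loess normalization, 5 with the replicate number as a block, and 2 to 13 with 1 library left out, and 0 rose in any alternative run. All called genes numbered 2271 as reported and 1423 with a filter of 5 RPKM, where fewer genes were tested. The replicate numbers share only a number: deviations of equal numbers correlated at -0.444 over 10182 genes. A pairing of unequal numbers, added after seeing the data, gave 25 lower members and 4196 called genes. The log2 change of PSMF1 lay between -0.10 and 0.009356 with 1 library left out, and turned positive without knockdown replicate 2. The PSMA2 event passed in no alternative, also with the replicate block. The shares of PSMB8, PSMB9 and PSMB10 in their counterparts kept their directions. Causes of these shifts were not tested. Junction depth is unknown, which limits the splicing result.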

Other observations

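PSME3IP1, a nuclear partner of the activator PSME3 that was left out by the naming rule, was at 17.3 and 20.7 RPKM in knockdown and at 19.1 and 16.8 RPKM in wild type, and its groups overlapped. Among partners outside the member list, the p97 unfoldase gene VCP was at 145 and 152 RPKM in knockdown and at 176 and 163 RPKM in wild type and did not pass limma's test (adjusted p = 0.164).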
